A study of Mus musculus with 24 samples.

Results

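The transcripts described here are the 37 genes of the mouse mitochondrial genome: 13 that encode proteins of the respiratory chain, 22 transfer RNA (tRNA) genes and 2 ribosomal RNA (rRNA) genes. They were taken by symbol, as every gene whose name begins with mt-, out of 55450 genes in a table of RSEM expected counts for 24 libraries. The protein, rRNA and tRNA classes were kept apart throughout. Total RNA was sequenced from testes, liver and cerebellum of mice that were wild-type (WT) or lacked Thumpd1 (KO), with 4 libraries for each tissue and genotype, numbered 1 to 4 in WT and 5 to 8 in KO. Thumpd1 encodes the adapter that brings the acetyltransferase Nat10 to tRNA, where it acetylates cytidines of leucine and serine tRNAs. The KO allele is a germline deletion made in C57BL/6N eggs with CRISPR-Cas9 guides to exons 1 and 4, carried by every cell of the animal and kept on a C57/BL6 background. Several founder lines were made, and the sources used here do not say which one gave these animals. Mice were 6 to 12 weeks old and of either sex, the controls were littermates of the same age, and no other allele or treatment is named. The study calls its replicates biological. The labels name no animal, so p-values measure the spread between these libraries, which may be partly technical.

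Mitochondrial DNA is a small circle that is copied into RNA from both strands as long precursors. In these the tRNAs sit between the mRNAs and rRNAs, and cutting out the tRNAs frees the other transcripts. All proteins needed for that transcription, cutting, modification and decay are encoded in the nucleus and imported. The products fall into complex I (NADH dehydrogenase), complex III, complex IV (cytochrome c oxidase) and the ATP synthase, whose remaining subunits are nuclear.

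Features of the sequences bear on what these counts can show. The first is a stretch of nuclear DNA. On the minus strand of chromosome 1 (mm10) between positions 24611535 and 24616197, 7 unprocessed pseudogenes repeat mitochondrial genes at 99% identity or more: Gm28439 (mt-Nd4), Gm10222 (mt-Nd4l), Gm28438 (mt-Nd3), Gm28437 (mt-Co3), Gm10925 (mt-Atp6), Gm28661 (mt-Co2) and Gm29216 (mt-Co1). The copies of mt-Nd4, mt-Nd4l, mt-Co3, mt-Atp6 and mt-Co2 matched without a mismatch over 876, 294, 783, 678 and 681 bases. The copies of mt-Nd3 and mt-Co1 differ at 1 base each from the stretch of the gene that aligned, T3C in mt-Nd3 and A1066T in mt-Co1 (345 of 345 bases of Gm28438 and 483 of 492 of Gm29216 aligned), counted from 1 at the first base of the gene, with the gene's base first. The windows that hold these bases, with the differing base in capitals, are shown to let the near identity be seen (chrM:9459-9521 and chrM:6390-6453, plus strand, and chr1:24613057-24613119 and chr1:24616125-24616188, minus strand, all mm10).
mt-Nd3: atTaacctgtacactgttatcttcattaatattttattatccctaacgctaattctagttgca
Gm28438: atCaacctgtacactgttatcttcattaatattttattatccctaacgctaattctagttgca
mt-Co1: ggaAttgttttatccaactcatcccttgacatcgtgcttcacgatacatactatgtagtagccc
Gm29216: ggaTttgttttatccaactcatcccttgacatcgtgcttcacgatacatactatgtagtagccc

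The second is an overlap. The frames of mt-Atp8 and mt-Atp6, which encode subunits of the ATP synthase, share the 43 bases from 7927 to 7969 of the plus strand, shown in capitals with 20 bases on each side (chrM:7907-7989), so a read inside them cannot be given to either gene alone.
mt-Atp8/mt-Atp6: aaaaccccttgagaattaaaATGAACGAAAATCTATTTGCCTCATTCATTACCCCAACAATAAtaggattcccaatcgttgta

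The third concerns the tRNAs. The letters CCG, the triplet that Nat10 favours, are in 2 of the 22 mitochondrial tRNA sequences read on the RNA strand (3 of 22 with both strands). None of the 4 leucine and serine tRNAs holds it. They are mt-Tl1 (chrM:2676-2750, plus strand), mt-Tl2 (chrM:11671-11741, plus), mt-Ts1 (chrM:6870-6938, minus) and mt-Ts2 (chrM:11613-11671, plus). They are printed as the mitochondrial counterparts of the tRNAs that Thumpd1 serves, beside mt-Tm, the methionine tRNA (chrM:3845-3913, plus), which took most of the tRNA counts and has CCG in capitals.
mt-Tl1: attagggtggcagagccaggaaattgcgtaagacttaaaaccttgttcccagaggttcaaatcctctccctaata
mt-Tl2: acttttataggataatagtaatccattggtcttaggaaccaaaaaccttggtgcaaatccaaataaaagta
mt-Ts1: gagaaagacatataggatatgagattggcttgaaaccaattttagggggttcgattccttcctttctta
mt-Ts2: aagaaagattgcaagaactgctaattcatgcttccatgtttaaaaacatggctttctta
mt-Tm: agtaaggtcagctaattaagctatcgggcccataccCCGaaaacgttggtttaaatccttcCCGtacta

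Libraries held 16353797 to 37889615 counts. Thumpd1 checked the labels: in counts per 1000000 (CPM), its cerebellar mean was 22.4 ± 1.06 for WT against 0.0563 ± 0.0464 for KO (SD, n = 4), its liver mean 9.74 ± 0.401 against 0.0567 ± 0.0436, and its testes mean 25.2 ± 0.84 against 0.955 ± 0.2. Markers of hepatocytes, cerebellar neurons and germ cells summed to at least 55164, 4341 and 6741 CPM in the tissue they name, and no marker of a list was at 0 there. In cerebellum, libraries of neighbouring number were alike in some marker lists, though not in the mitochondrial genes, where KO replicates 5 and 6 differed. The Sertoli and Leydig cell list summed to 110, 106, 99.2 and 98.5 CPM in WT cerebellum. Its sums in KO cerebellum were 114, 114, 107.04 and 107.02 CPM. In liver such likeness was seen in mt-Co1, at 5020, 4925, 6291 and 6167 CPM in WT. KO replicates 5 to 8 of liver read 5912, 5887, 4732 and 5517 CPM. Liver mt-Co3 did not show it, with 331 and 621 CPM in KO replicates 5 and 6. The hepatocyte list, which holds Ttr, a gene that the choroid plexus also expresses, summed to 937, 965, 2.99 and 2.96 CPM in WT cerebellum and to 4.19, 4.34, 319 and 315 CPM in KO cerebellum. The KO comparisons within a tissue are also given after libraries 1 and 2, 3 and 4, 5 and 6, and 7 and 8 were summed to 2 samples a group, an alternative chosen after seeing the data. In liver, WT replicate 4 stood apart in rRNA, and KO replicates 5 and 6 stood apart in reads on the strand opposite abundant genes, both described below.

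The share of all counts that the protein class took was largest in cerebellum, with a lower KO mean in cerebellum and a higher one in testes. Without the nuclear copies, its share of all counts was 1.65, 1.46, 1.497 and 1.65% in the WT cerebellum libraries and 1.298, 1.51, 1.13 and 1.27% in the KO cerebellum libraries. In liver the shares were 0.84, 0.846, 1.06 and 0.998% in WT and 0.923, 0.951, 0.793 and 1.03% in KO. Testes gave 0.786, 0.659, 0.619 and 0.608% in WT and 0.87, 0.779, 0.838 and 0.731% in KO. KO replicates 5, 7 and 8 of cerebellum lay below every WT library and KO replicate 6 lay among them, 2 KO libraries of testes lay above every WT library, and the liver groups overlapped. Dividing the KO mean by the WT mean gave 0.832 for cerebellum, 0.988 for liver and 1.20 for testes. With the counts of the 7 nuclear copies added, the shares were 2.05 ± 0.123% in WT and 1.73 ± 0.218% in KO cerebellum (SD, n = 4), 1.11 ± 0.0576% and 1.11 ± 0.132% in liver, and 0.92 ± 0.0879% and 1.104 ± 0.0761% in testes, and the ratios were 0.845, 1.00 and 1.20. The order of tissues rested on the scaling: with library sizes scaled by TMM over all 24 libraries, WT means were 1.14 ± 0.0717% in cerebellum, 1.56 ± 0.207% in liver and 0.581 ± 0.0635% in testes, with liver highest and no overlap between tissues. A share of a class is a sum over the members and was given no test. In bulk tissue, fewer cells of a type and less RNA per cell cannot be told apart.

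**Figure D1:**
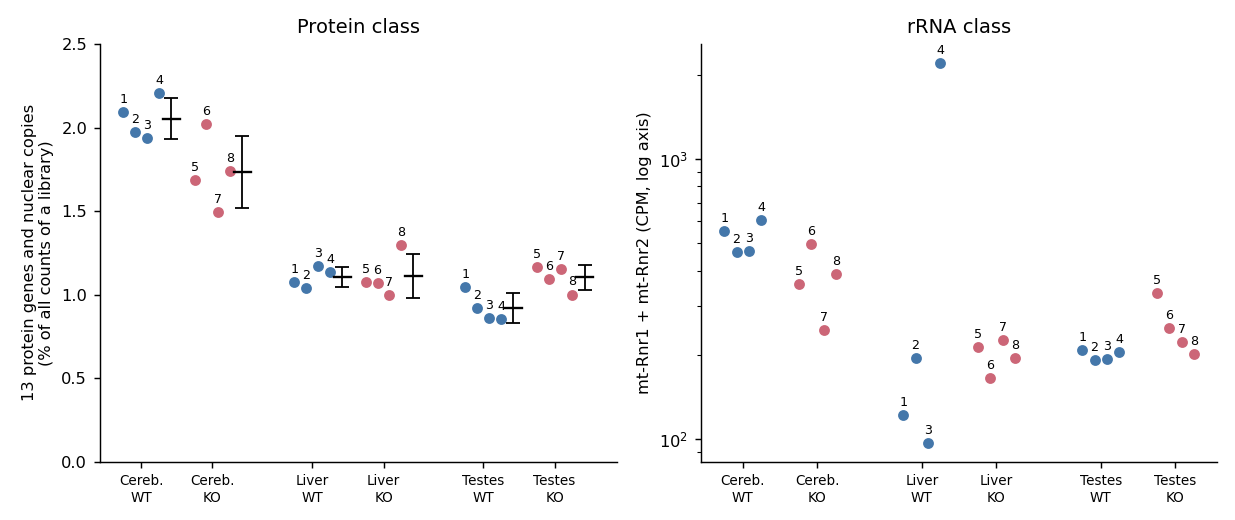
Share of the 13 protein genes with their nuclear copies in each library (left, percent of all counts) and the summed level of the 2 rRNA genes (right, CPM, log axis); points are libraries with their replicate number, blue WT and red KO, and bars on the left are the mean ± SD of 4 libraries. Cerebellum KO replicates 5, 7 and 8 lie below the WT libraries on the left, and the liver library WT replicate 4 stands at 2205 CPM on the right, against 97.1 to 226 CPM in the other liver libraries.

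For mt-Co2, mt-Co3 and mt-Atp6, much of the summed count of gene and nuclear copy was given to the copy. Over the 24 libraries, Gm28661 held 32.9% to 83.7% of the counts of mt-Co2 and itself, Gm28437 held 24.3% to 77.1% for mt-Co3, and Gm10925 held 29.6% to 78.4% for mt-Atp6. For mt-Nd4l the split differed by tissue: Gm10222 held 2.61% to 12.6% in WT liver, 44.8% to 70.6% in WT cerebellum and 59.8% to 83.6% in WT testes. The copy with a mismatch at mt-Nd3, Gm28438, took 3.34% to 66.7%, and that at mt-Co1, Gm29216, took 1.74% to 12.05%. Gm28439 took at most 0.176% of the counts of mt-Nd4, whose remaining bases lie outside the copy. Adding the copy made libraries of a group more alike for 3 of the 7 genes. The coefficient of variation within a group, as the median of the 6 groups, went from 39.2% to 12.5% for mt-Co3, from 21.7% to 8.32% for mt-Co2 and from 26.6% to 12.8% for mt-Atp6, and was smaller in 6 of 6 groups for each. For mt-Nd3, mt-Nd4, mt-Nd4l and mt-Co1 it was smaller in 3 or 4 of the 6 groups. Whether any of these reads came from chromosome 1 was not tested. For mt-Co2, mt-Co3, mt-Atp6, mt-Nd3 and mt-Nd4l, the value of the gene alone is uncertain, and values with the copy are given below as well.

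**Figure D2:**
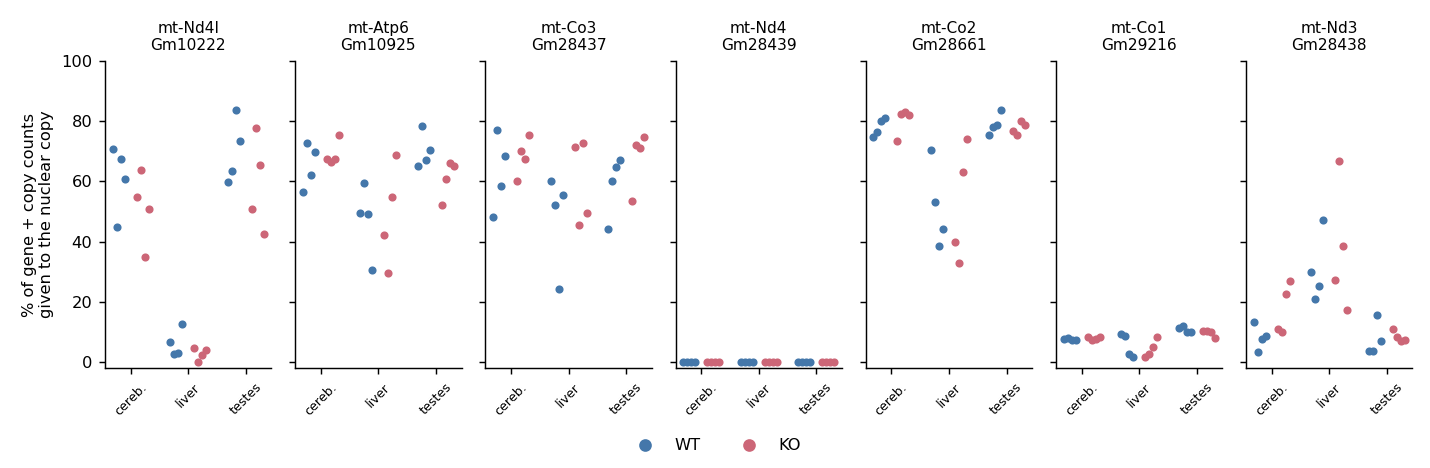
Percent of the summed counts of a mitochondrial gene and its nuclear copy that the table gives to the copy, for 7 pairs (panels) in the 24 libraries (points; blue WT, red KO) of the 3 tissues. The share varies widely between libraries of a group for mt-Nd4l, mt-Atp6 and mt-Co3, and in liver for mt-Co2 and mt-Nd3, while mt-Nd4 stays near 0.

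The values of the protein and rRNA genes in every library are plotted by gene.

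**Figure D3:**
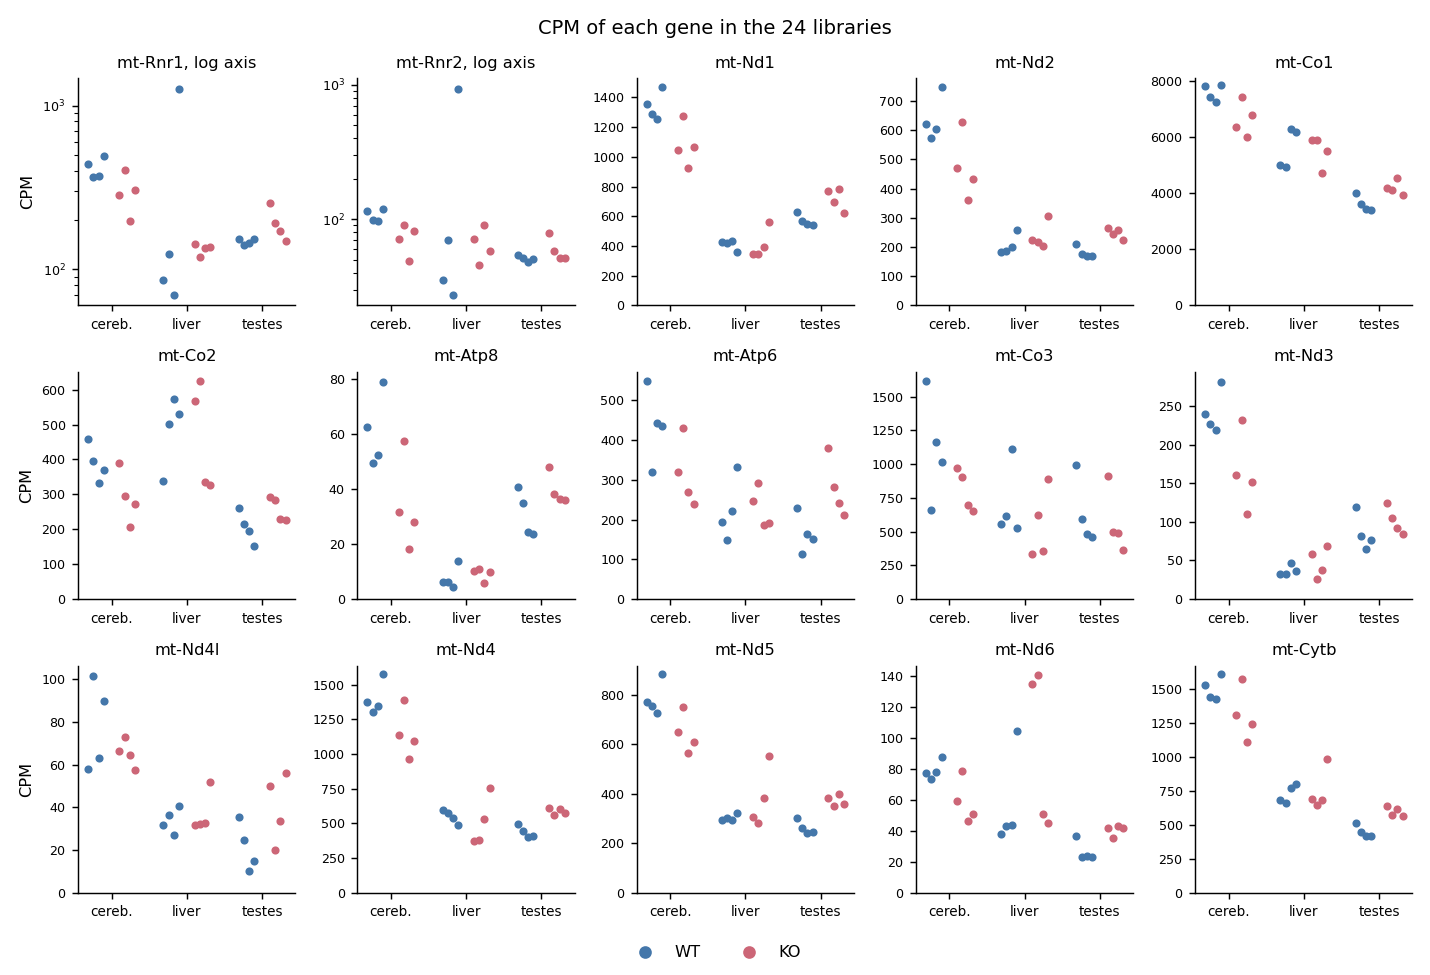
CPM of the 2 rRNA genes (log axis) and the 13 protein genes (linear axis from 0) in the 24 libraries, without nuclear copies; blue points are WT and red points KO libraries, in order of replicate number. In cerebellum at least 3 of 4 KO points lie below the WT points in 11 of the 13 protein panels, and in testes the KO points lie above all WT points for mt-Nd2, mt-Nd4, mt-Nd5 and mt-Cytb.

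Loss of Thumpd1 was first examined in cerebellum, where the calls among the mitochondrial mRNAs were all toward lower levels in KO, and 12 of 13 log2 changes were negative with quantile normalization (mt-Co1 was the exception, and it turned negative with TMM). After quantile normalization, the method named in the study's methods, limma called 5 of 13 protein genes, all lower, beside 6.44% of all genes tested called in this tissue. The median log2 change of the 13 was -0.38, against -0.01 over all genes tested. In 11 of the 13 genes at least 3 KO libraries were below every WT library. The share of all genes that meet this weaker rule was not counted, so the 11 stands without a background. For 0 of 13 did the groups separate fully, beside 13.8% of all genes whose WT and KO libraries did not overlap. The exception was KO replicate 6, which lay below all WT libraries for 1 of the 13 genes, where KO replicates 5, 7 and 8 did so for 10, 11 and 13.

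Among the complex I subunits, mt-Nd1 (chrM:2751-3707) read 1355, 1287, 1257 and 1472 CPM in WT and 1048, 1277, 923 and 1069 CPM in KO (log2 change -0.30 ± 0.07 SE, adjusted p 0.0234). mt-Nd3 read 239.9, 226, 219 and 281 CPM in WT and 160.1, 232, 110.2 and 151 CPM in KO (log2 change -0.60 ± 0.16 SE, adjusted p 0.038). With Gm28438 added it was not called (-0.46 ± 0.14, adjusted p 0.0647, with the scaling by trimmed mean of M values, TMM). KO replicate 6 was inside the WT range for both genes, and the other KO libraries were below it. mt-Nd4 (chrM:10167-11544) read 1375, 1303, 1344 and 1575 CPM in WT and 1135, 1388, 967 and 1092 CPM in KO (log2 change -0.29 ± 0.07 SE, adjusted p 0.0373). That call was lost with TMM (adjusted p 0.0522) and with TMM and the copies (-0.31 ± 0.09, adjusted p 0.0511). mt-Nd6 (chrM:13552-14070, minus strand), the protein gene read from the other strand of the circle, stood at 77.7, 73.5, 78.3 and 88.02 CPM in WT and 59.4, 78.8, 46.1 and 50.9 CPM in KO (log2 change -0.47 ± 0.12 SE, adjusted p 0.0368). Again it was KO replicate 6 that overlapped WT. mt-Nd2 and mt-Nd5 did not pass with quantile normalization (log2 change -0.43 and -0.27) and passed with TMM and the copies added (-0.46 ± 0.13, adjusted p 0.0466, and -0.30 ± 0.08, adjusted p 0.0338). For mt-Nd4l the gene alone had a log2 change of -0.24, and with Gm10222 it was -0.55 ± 0.15 with quantile normalization (adjusted p 0.051, not called) and fell with TMM (-0.57 ± 0.15, adjusted p 0.0437).

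Of the remaining complexes, the ATP synthase subunit gene mt-Atp8 (chrM:7766-7969) had the lowest ratio. It read 62.8, 49.7, 52.4 and 78.9 CPM in WT and 31.7, 57.7, 18.3 and 28.2 CPM in KO (log2 change -0.97 ± 0.24 SE, adjusted p 0.0316). mt-Atp6 alone had a log2 change of -0.47 with quantile normalization, not called. With Gm10925 it was at -0.29 ± 0.10 with quantile normalization (adjusted p 0.0989) and at -0.33 ± 0.10 with TMM (adjusted p 0.0685), neither called. mt-Cytb (chrM:14145-15288), the complex III cytochrome b, read 1535, 1445, 1428 and 1613 CPM in WT and 1309, 1574, 1115 and 1247 CPM in KO (log2 change -0.20 ± 0.07 SE, adjusted p 0.129). KO replicates 5, 7 and 8 were below its WT libraries. In complex IV, mt-Co2 and mt-Co3 were not called alone (log2 change -0.44 and -0.38). With Gm28661, mt-Co2 was at -0.18 ± 0.07 with quantile normalization (adjusted p 0.144, not called) and fell with TMM (-0.29 ± 0.08, adjusted p 0.0406). mt-Co3 with Gm28437 was at -0.16 ± 0.06 with quantile normalization (adjusted p 0.15) and at -0.25 ± 0.08, adjusted p 0.0841 with TMM, neither called. The direction of mt-Co1 (chrM:5328-6872), the catalytic subunit, depended on the scaling. Its CPM were 7826, 7437, 7253 and 7871 CPM in WT and 6371, 7418, 5993 and 6787 CPM in KO, lower in 3 of 4 KO libraries than in any WT library, yet quantile normalization gave a log2 change of 0.11 ± 0.08 SE, adjusted p 0.411, and TMM gave -0.21 (adjusted p 0.0334). It ranked 5 or 6 by CPM in each cerebellum and testes library, and quantile normalization gives equal values to equal ranks.

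Across the class, adding the copies under quantile normalization called 4 of 13 protein genes (1042 of 16218 genes in all). TMM alone called 7 of 13, and TMM with the copies 8 of 13, beside 6.73% of all genes, all lower. The calls changed with the samples, and so did those over all genes. With neighbouring libraries summed, 0 of 13 were called, and 12 had p under 0.05 unadjusted. Over all genes that fit called 48 of 16225, with 2648 of 16225 at p under 0.05 unadjusted, and the median log2 change of the 13 was -0.43. Without KO replicate 6, 9 of 13 were called (2317 of 16099 genes in all). Without KO replicates 5, 7 or 8 or WT replicates 1, 3 or 4, 0 or 1 were, with between 417 and 545 genes called in all. Without WT replicate 2 it was 7, and 999 of 16111 genes in all. edgeR called 3 (1059 of 16225 genes in all) and DESeq2 2 (1324 of 16224 genes in all), all lower, and one fit of all 24 libraries with TMM called 0 (195 of 22678 genes in all). Cell markers differed between genotypes too. All 9 cerebellar neuron markers were tested, 3 were called lower and 1 higher, none was at 0, and their sum was 4856, 4813, 4814 and 4841 CPM in WT and 4341, 4355, 4610.4 and 4707 CPM in KO. The sums of the groups did not overlap. Of midbrain and forebrain neuron markers, 2 of 6 tested were called higher, with sums from 17.1 to 23.4 CPM in WT and from 23.3 to 26.7 CPM in KO. Of red blood cell markers, 1 of 3 tested was called lower (median log2 change -0.58), with sums from 7.76 to 8.67 CPM in WT and from 3.74 to 7.01 CPM in KO. For choroid plexus 0 of 6 were called (median -0.58), with sums from 10.3 to 1071 CPM in WT and from 13.1 to 356 CPM in KO. The share of counts held by 6 abundant noncoding RNAs also differed, at 6.53, 6.82, 6.07 and 6.29% in WT and 7.24, 6.41, 7.41 and 6.96% in KO. KO replicates 5, 7 and 8 lay above every WT library and KO replicate 6 among them, as with the protein share in the other direction. An index of reads on the strand opposite abundant genes, defined with liver mt-Nd6 below, was above WT in all 4 KO libraries. The part of these measures in the result was not tested.

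Of the rRNA genes, mt-Rnr2 was called lower in KO cerebellum and mt-Rnr1 was not. mt-Rnr2, the rRNA of the large mitochondrial ribosomal subunit (chrM:1094-2675), read 114, 99.4, 97.4 and 119 CPM in WT and 71.6, 91.2, 49.1 and 81.3 CPM in KO (log2 change -0.60 ± 0.14 SE, adjusted p 0.0255), and its 4 KO libraries were all below the 4 WT libraries. The call was lost without KO replicate 5, WT replicate 1 or WT replicate 4, with neighbouring libraries summed and in one fit of 24 libraries. mt-Rnr1, that of the small subunit (chrM:70-1024), read 438, 365, 371 and 489 CPM in WT and 285, 405, 196 and 306 CPM in KO (log2 change -0.50 ± 0.16 SE, adjusted p 0.0784). Here KO replicate 6 overlapped WT and the call was missed. It was made with sample quality weights (1757 of 16225 genes in all) and without KO replicate 6 (2317 of 16099 genes in all), where both rRNA genes were called lower. rRNA had been removed from the RNA before sequencing, so both levels are of what the removal left.

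**Figure D4:**
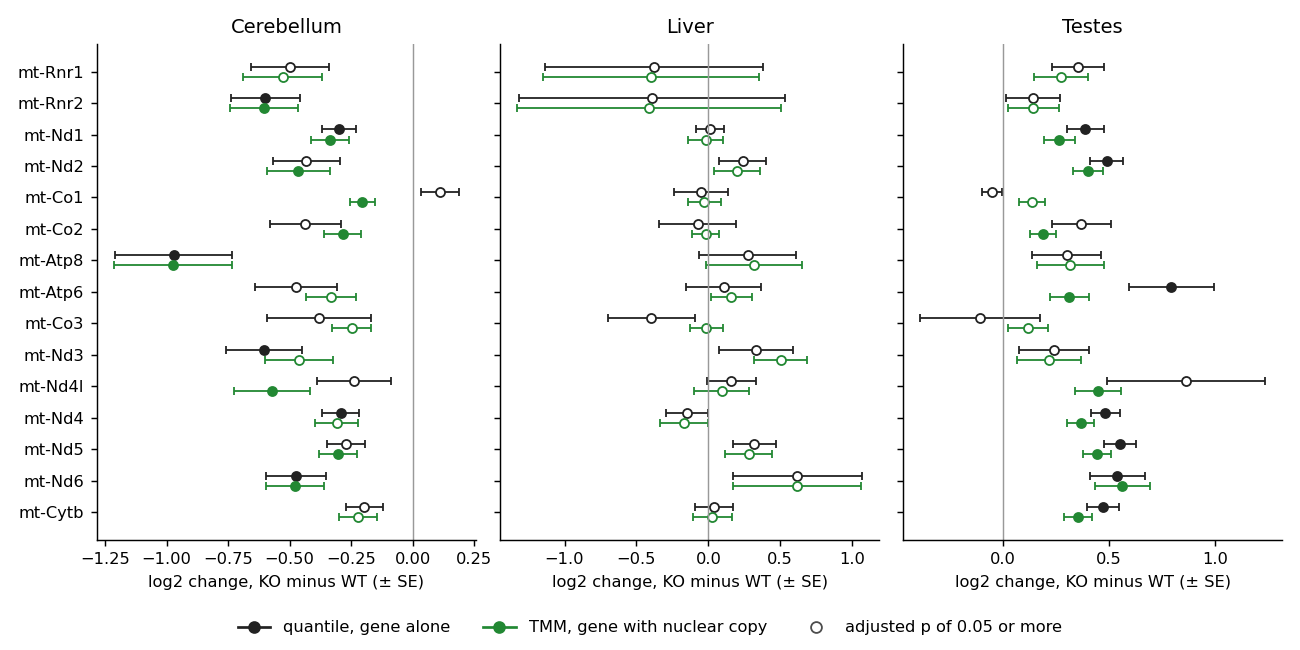
log2 change from WT to KO (± SE, limma) of the 2 rRNA and 13 protein genes in their order on mitochondrial DNA, in 3 tissues; black is the gene alone after quantile normalization, green the gene with its nuclear copy after TMM, and filled points have an adjusted p under 0.05. Green points lie left of 0 in cerebellum and right of 0 in testes for all 15 genes, and no point is filled in liver.

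In testes the calls among the mitochondrial mRNAs were all toward higher levels in KO, and 11 of 13 log2 changes were positive, the exceptions being mt-Co1, which turned positive with TMM, and mt-Co3, which turned positive with its copy. With quantile normalization 7 of 13 protein genes were called, all higher, beside 20.5% of all genes tested, and the median log2 change was 0.47 against 0.00 over all genes. With the copies added, quantile normalization called 9 of 13 (3964 of 19323 genes in all) and TMM also 9, beside 23% of all genes, all higher. For 4 of the 13 genes every KO library was above every WT library, beside 28.6% of all genes tested whose groups did not overlap, a share close to that background.

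Complex I, to which most of the protein genes belong, gave 5 of the 7 calls. mt-Nd2 (chrM:3914-4951) read 209, 175, 168 and 170.1 CPM in WT and 266, 245, 257 and 225 CPM in KO (log2 change 0.49 ± 0.08 SE, adjusted p 0.00347). mt-Nd5 (chrM:11742-13565) read 301, 262, 243 and 246 CPM in WT and 382, 351, 399 and 360.5 CPM in KO (log2 change 0.55 ± 0.08 SE, adjusted p 0.00205). mt-Nd4 read 495, 448, 404 and 407 CPM in WT and 608, 564, 607 and 576 CPM in KO (log2 change 0.48 ± 0.07 SE, adjusted p 0.00253). In these 3 genes the groups did not overlap. mt-Nd1 read 628, 565, 546 and 541 CPM in WT and 770.3, 698, 784 and 619 CPM in KO (log2 change 0.39 ± 0.09 SE, adjusted p 0.0118). Only KO replicate 8 fell inside its WT range. mt-Nd6 read 36.98, 23.2, 23.8 and 23.4 CPM in WT and 42.1, 35.3, 43.2 and 41.96 CPM in KO (log2 change 0.54 ± 0.13 SE, adjusted p 0.0154). WT replicate 1 was the highest WT library and KO replicate 6 the lowest KO library, and they overlapped. Of the short subunit genes, mt-Nd3 was not called (0.24). With its copy it was at 0.25 ± 0.15 with quantile normalization (adjusted p 0.245) and at 0.22 ± 0.15 with TMM (adjusted p 0.298). mt-Nd4l alone varied from 10.2 to 55.9 CPM over the 8 libraries and was not called (0.86). With Gm10222 it rose, by 0.48 ± 0.11 with quantile normalization (adjusted p 0.013) and by 0.45 ± 0.11 with TMM (adjusted p 0.0142).

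mt-Cytb of complex III read 516, 449, 419 and 421 CPM in WT and 644, 576, 615 and 569 CPM in KO (log2 change 0.47 ± 0.07 SE, adjusted p 0.00342), with no overlap. mt-Atp6 read 229, 114, 164 and 150.2 CPM in WT and 381, 281, 242 and 211 CPM in KO (log2 change 0.79 ± 0.20 SE, adjusted p 0.0191). Its groups overlapped. With Gm10925 the change was 0.45 ± 0.10 with quantile normalization (adjusted p 0.0133) and 0.31 ± 0.09 with TMM (adjusted p 0.0306). With TMM and without the copy it was 0.71 ± 0.20 (adjusted p 0.0261). mt-Atp8 was not called (0.30). In complex IV, mt-Co2 was not called alone (0.37). With Gm28661 it read 1056, 984, 918 and 925 CPM in WT and 1263, 1158, 1147 and 1064 CPM in KO. It was then called with quantile normalization (0.37 ± 0.07, adjusted p 0.00551) and with TMM (0.19 ± 0.06, adjusted p 0.0415). mt-Co3 alone had a log2 change of -0.11 with quantile normalization. With Gm28437 it was at 0.23 ± 0.10 with quantile normalization (adjusted p 0.127) and at 0.12 ± 0.09 with TMM (adjusted p 0.362). Adding the copy thus turned its direction without a call. mt-Co1 read 3999.6, 3608, 3446 and 3396 CPM in WT and 4179.5, 4101, 4551 and 3945 CPM in KO, and its log2 change was -0.05 after quantile normalization and 0.15 after TMM (adjusted p 0.068), not called by either of these. The rRNA genes were not called in testes (mt-Rnr1 0.35 ± 0.12 SE, adjusted p 0.0618, and mt-Rnr2 0.15 ± 0.13 SE, adjusted p 0.429). With sample quality weights both were called higher (6107 of 19329 genes in all), and without KO replicate 8 mt-Rnr1 was (3244 of 19151 genes in all).

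Between 5 and 8 of the 13 were called when one testes library was left out, with 1711 to 4913 genes called in all. Without WT replicate 2, 3 or 4 the call of mt-Atp6 was lost, and without WT replicate 3 or 4 that of mt-Nd6. With 2 summed samples a group, 0 were called after neighbouring libraries were summed (8 had p under 0.05 unadjusted), with a median log2 change of 0.49. Over all genes that fit called 1 of 19329, with 4031 of 19329 at p under 0.05 unadjusted. edgeR (4442 of 19329 genes in all) and DESeq2 (5039 of 19312 genes in all) each called 7, and one fit of all 24 libraries with TMM called 1 of 13 (3628 of 22678 genes in all). The cell markers of testes differed between genotypes as well. All 8 germ cell markers were tested, 3 were called lower and 1 higher, none was at 0, and their sum was 9258, 9552, 9429 and 9653 CPM in WT and 8729, 8504, 6740.5 and 6968 CPM in KO, without overlap. Of 9 Sertoli and Leydig cell markers, 4 were called higher and 1 lower, and their sum ran from 1095 to 1208 CPM in WT and from 1016 to 1596 CPM in KO. KO replicates 5 and 6 had the higher germ cell sums and KO replicates 7 and 8 the lower ones. The part of cell make-up in the result was not tested.

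In liver no protein gene was called in either direction by limma with quantile normalization or with TMM and the copies added, beside 5.91% and 6.84% of all genes. At an unadjusted p under 0.05 there were 0 and 1, where 2981 of 12816 genes were with quantile normalization, and edgeR and DESeq2 called 0. For 0 of 13 genes were the groups apart, beside 12.7% of all genes tested, and the median log2 change was 0.11, with 9 genes higher and 4 lower. mt-Nd4, for example, read 598, 577, 540.3 and 489 CPM in WT and 374, 383, 535 and 754 CPM in KO (log2 change -0.15 ± 0.14 SE, adjusted p 0.581), with KO replicates 5 and 6 lowest and KO replicate 8 highest. mt-Co1 read 5020.4, 4925, 6291 and 6167 CPM in WT and 5912, 5887, 4732 and 5517 CPM in KO (log2 change -0.05 ± 0.19 SE, adjusted p 0.902). These values follow no order by genotype.

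mt-Nd6 was the widest of the liver protein genes. It read 38.2, 43.1, 43.9 and 105 CPM in WT and 135, 141, 50.6 and 45.2 CPM in KO (log2 change 0.62 ± 0.45 SE, adjusted p 0.446), so WT replicate 4 and KO replicates 5 and 6 stood at 105 to 141 CPM and the other 5 libraries at 38.2 to 50.6 CPM. Relative to mt-Nd5, its neighbour on the other strand, it was 12.98, 14.2, 14.9 and 32.4% in WT and 44.2, 49.6, 13.2 and 8.18% in KO. An index of reads on the strand opposite abundant genes was compared with it, a measure added after seeing the data. It is the counts of genes that lie to at least 90% of their exon bases opposite a gene of at least 50 CPM and hold under 5% of its level, as a percent of the counts of those opposite genes. Over 74 such genes in liver it was 0.0649, 0.0569, 0.0747 and 0.0687% in WT and 0.211, 0.225, 0.0615 and 0.0663% in KO. KO replicates 5 and 6 were high in both measures, and WT replicate 4 was high only in mt-Nd6. The index was 0.0355, 0.0376, 0.0351 and 0.0348% in WT cerebellum and 0.0384, 0.0377, 0.0392 and 0.0421% in KO cerebellum, where every KO library was above every WT library. In testes it ran from 0.164% to 0.2%. Its part in the level of mt-Nd6 was not tested.

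The liver rRNA values were ruled by 1 library. mt-Rnr1 read 86.6, 125, 69.7 and 1268 CPM in WT and 142, 119, 134 and 137 CPM in KO (log2 change -0.38 ± 0.76 SE, adjusted p 0.812). mt-Rnr2 read 35.6, 69.6, 27.3 and 938 CPM in WT and 71.7, 46.02, 91.4 and 58.2 CPM in KO (log2 change -0.39 ± 0.92 SE, adjusted p 0.843). WT replicate 4 was far above the other 7 libraries in both. Without it both changes turned positive, to 0.62 for mt-Rnr1 (adjusted p 0.044) and 0.76 for mt-Rnr2 (adjusted p 0.14). With edgeR, which fits the counts themselves, the changes over all 8 libraries were -1.64 and -2.10, not called. In this library 6 abundant noncoding RNAs, among them Rn7sk and Gm42418, also took their highest share of counts in liver, 30.96%, against 17.5% to 27.2% in the other libraries.

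The effects of KO were then set against each other between tissues, in one limma fit of all 24 libraries with TMM. Testes and cerebellum differed in 7 of 13 protein genes, all more positive in testes, beside 14.6% of all genes tested. The calls, as differences of log2 changes ± SE, were mt-Atp8, 1.23 ± 0.34 (adjusted p 0.0189), and mt-Atp6, 1.15 ± 0.35 (adjusted p 0.0288). In complex I they were mt-Nd2, 0.81 ± 0.20 (adjusted p 0.00955), mt-Nd5, 0.69 ± 0.18 (adjusted p 0.0108), mt-Nd4, 0.62 ± 0.19 (adjusted p 0.0277), and mt-Nd1, 0.55 ± 0.15 (adjusted p 0.0171). mt-Cytb of complex III differed by 0.52 ± 0.15 (adjusted p 0.0246). The difference was positive for 13 of 13 genes, with a median of 0.69. Between 3 and 9 were called as each library in turn was left out. The count was 3 without cerebellar KO replicate 7 (1091 of 11112 genes in all). It was 4 without cerebellar WT replicate 4 (1156 genes in all) or testes WT replicate 4 (1119), against 1617 genes with all libraries. Cerebellum and liver differed in 2 of 13, mt-Nd2, -0.65 ± 0.20 (adjusted p 0.0467), and mt-Nd5, -0.59 ± 0.18 (adjusted p 0.0403), beside 7.91% of all genes. Those calls rested on single libraries: 0 were left without cerebellar KO replicate 5, 7 or 8, cerebellar WT replicate 1 or 4, liver KO replicate 8 or liver WT replicate 1, 2 or 3. In these fits 548 to 805 of 11112 genes were called in all. The count was 4 without cerebellar KO replicate 6 (1072 genes in all) or liver WT replicate 4 (1280). Testes and liver differed in 0 of 13, beside 16.4% of all genes, and edgeR and DESeq2 also called 0. At p under 0.05 unadjusted there was 1, where 3498 of 11112 genes were. Without liver KO replicate 8, 3 were called, with 1677 genes in all. Neither rRNA gene passed the test between any pair of tissues. With the nuclear copies added, testes minus cerebellum gave 9 calls (1621 of 11106 genes in all). mt-Atp6 was then at 0.59 ± 0.19 (adjusted p 0.0338), and mt-Nd4l, 0.97 ± 0.24 (adjusted p 0.00871), and mt-Co2, 0.42 ± 0.12 (adjusted p 0.0237), were also called. Cerebellum minus liver then gave 3 (880 of 11106 genes in all), with mt-Nd3 at -0.95 ± 0.26 (adjusted p 0.0273). The 3 comparisons share libraries and are not independent of each other.

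Nuclear genes that serve mitochondrial RNA were counted from lists. Of 18 nuclear genes of mtDNA transcription and replication, 0 were called in cerebellum (18 tested) and liver (16 tested). In testes 2 were lower and 1 higher, a share below the 20.5% of all genes called. The 2 lower were Tfb1m, which dimethylates the small-subunit rRNA, at 35.03 ± 0.984 CPM (WT) against 27.6 ± 2.54 CPM (KO; log2 change -0.44 ± 0.08 SE, adjusted p 0.0058), and Tfam, the packaging and transcription factor of mtDNA, at 83.1 ± 5.42 CPM (WT) against 65.7 ± 11.8 CPM (KO; log2 change -0.40 ± 0.12 SE, adjusted p 0.0312). Of 22 genes of mitochondrial RNA processing, stability and decay, 2 were lower in testes, again below that share, and none was called elsewhere. Rexo2, an oligoribonuclease that clears short RNA, was at 33.3 ± 1.23 CPM (WT) against 28.01 ± 3.97 CPM (KO; log2 change -0.35 ± 0.10 SE, adjusted p 0.0286), and Ptcd2, a pentatricopeptide repeat protein, at 19.4 ± 1.44 CPM (WT) against 16.7 ± 1.57 CPM (KO; log2 change -0.32 ± 0.09 SE, adjusted p 0.0333). Of 22 genes that modify mitochondrial tRNA and rRNA, 1 was called in cerebellum, a share below the 6.44% of all genes, Cdk5rap1, which methylthiolates adenosines of mitochondrial tRNAs, at 4.21 ± 0.47 CPM (WT) against 6.92 ± 1.002 CPM (KO; log2 change 0.68 ± 0.13 SE, adjusted p 0.00869). In testes 1 of the 22 was called, again below 20.5%, Rpusd3, of the pseudouridine synthase family, at 8.36 ± 0.656 CPM (WT) against 6.93 ± 1.07 CPM (KO; log2 change -0.38 ± 0.11 SE, adjusted p 0.0273). Of 7 regulators of mitochondrial biogenesis, 2 were called higher in liver, where 5.91% of all genes tested were called in either direction and no mitochondrial gene was. Ppargc1a, the coactivator PGC-1alpha, was at 4.99 ± 1.04 CPM (WT) against 7.93 ± 1.06 CPM (KO; log2 change 0.67 ± 0.17 SE, adjusted p 0.0425), and Gabpa, a subunit of nuclear respiratory factor 2, at 26.1 ± 0.845 CPM (WT) against 31.8 ± 1.23 CPM (KO; log2 change 0.31 ± 0.08 SE, adjusted p 0.0434).

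The nuclear partners in the respiratory chain were also counted, and the shares of them called were below the 20.5% of all genes in testes and the 5.91% in liver and near the 6.44% in cerebellum. Of 77 nuclear genes named as subunits of complexes I to V, 75 were tested in each tissue. In cerebellum 5 were higher and 1 lower, with a median log2 change of 0.06. In testes 1 was higher and 10 were lower, with a median of -0.11, and in liver 2 were higher and none lower, with a median of 0.08. Over all genes tested the medians were -0.01, 0.00 and 0.00 in cerebellum, testes and liver. Medians of the mitochondrial protein genes were -0.38, 0.47 and 0.11 in the same order, so in cerebellum and testes the medians of both sets had opposite signs. No test of that contrast was made. The summed nuclear share of counts in KO was 1.04 times that in WT in cerebellum, 0.964 times in testes and 0.999 times in liver.

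WT tissues were compared to give the levels apart from KO. Per kilobase of gene and with nuclear copies added, mt-Co1 was highest in each tissue, at 5318 ± 209 CPM per kb in cerebellum, 3835 ± 345 in liver and 2622 ± 218 in testes (SD, n = 4). mt-Co3 followed, at 3821 ± 246, 1702 ± 159 and 1921 ± 239.7 CPM per kb. At the low end, mt-Nd6 was at 153 ± 11.9, 111 ± 60.7 and 51.7 ± 13.04 CPM per kb. mt-Atp8, the shortest protein gene at 204 bases, was at 299 ± 64.8, 37.8 ± 20.3 and 152 ± 40.6. In testes mt-Nd5 was lower, at 144 ± 14.5. With 100 bases taken off each length, mt-Atp8 was at 586, 74.05 and 298, and mt-Nd5 at 455, 176 and 153. The place of mt-Atp8 in cerebellum and testes thus rested on the length used. After rRNA removal, mt-Rnr1 held 435 ± 61.8 CPM per kb in cerebellum and mt-Rnr2 68.01 ± 6.84.

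With TMM, limma called 7 of 13 protein genes between cerebellum and liver, 12 between testes and liver and 12 between testes and cerebellum, beside 87.5%, 90.6% and 90.3% of all genes tested, shares close to that background or below it. Directions rested on the scaling. Between cerebellum and liver, 6 of 13 were higher in cerebellum with TMM and 11 of 13 with quantile normalization. The median of all genes was itself shifted by 0.83 on the log2 scale between testes and liver with TMM. Shares within the class need no scaling between libraries and are given instead. mt-Co1 made up 53.5% of the protein class with its copies in liver, 44.1% in testes and 40.1% in cerebellum, and the ranges of the 3 tissues did not overlap. In liver the share of mt-Atp8 was 0.0696%, against 0.333% in testes and 0.295% in cerebellum. mt-Nd4l made up 0.978%, 0.738% and 0.33% in cerebellum, testes and liver, and mt-Nd3 1.28%, 0.989% and 0.489%. The 3 shortest genes were thus lowest in liver, each with all liver libraries below those of the other tissues. The same held for the longer genes mt-Nd1, mt-Atp6 and mt-Co3. Shares within the class depend on each other, so a larger share of mt-Co1 leaves less for the other genes. For mt-Co2 no neighbouring tissues were apart, at 10.6% in testes, 9.31% in liver and 8.62% in cerebellum.

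**Figure D5:**
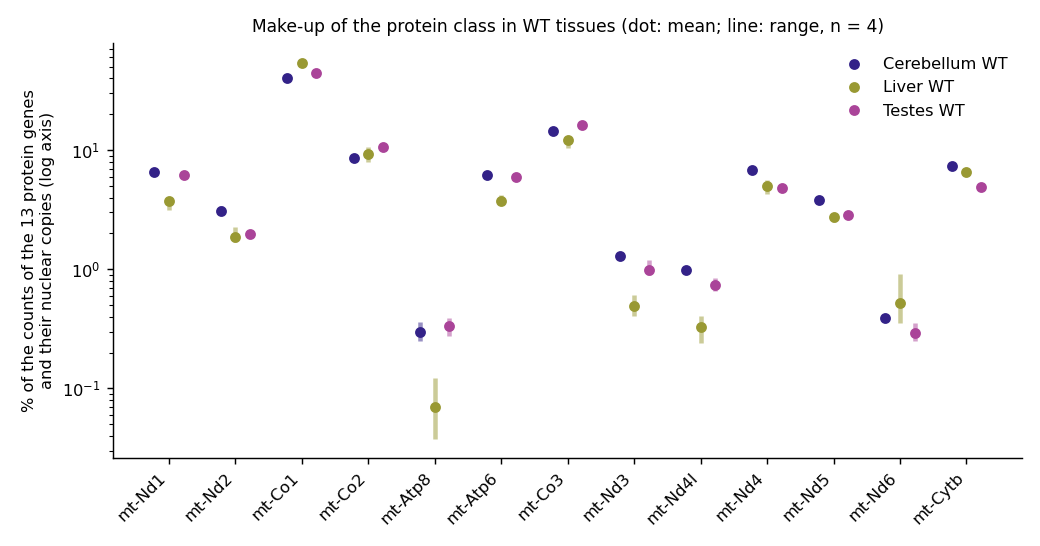
Percent of the counts of the 13 protein genes and their nuclear copies that each gene holds in the WT libraries of the 3 tissues (log axis); dots are means and lines the range of 4 libraries. mt-Co1 is highest in liver, and mt-Atp8, mt-Nd3, mt-Nd4l, mt-Nd1, mt-Atp6 and mt-Co3 are among the genes lowest there.

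The tRNA class was nearly absent from the counts. Over all 24 libraries the 22 genes together held 175 counts, 14 of them held 0 in every library, and none passed the filter of 1 CPM in 4 libraries in any tissue. mt-Tm held 159 of the 175: in liver 16, 17, 6 and 6 counts in WT and 15, 6, 25 and 18 in KO, in cerebellum 7, 6, 2 and 5 in WT and 7, 8, 7 and 2 in KO, and in testes 0 to 2. Those ranges overlapped between WT and KO in each tissue. In CPM, 3 KO libraries of cerebellum and 3 of liver were above every WT library, and 1 KO library of cerebellum was below. Of the leucine and serine tRNAs, mt-Tl1 had 3 counts each in the liver libraries KO replicate 5 and KO replicate 7, mt-Ts1 had 1 count in the liver library KO replicate 6, and mt-Tl2 and mt-Ts2 had none in any library. A count of 0 allows a level of up to 3 counts, which is 0.0792 to 0.183 CPM in these libraries, for counting error only. The 22 genes are 59 to 75 bases long. With a weaker filter, 1 tRNA gene was tested in cerebellum and 1 in liver. With no filter, liver had 8 in the test, cerebellum 2 and testes 1. None was called or had p under 0.05 unadjusted, and the log2 changes of the 8 in liver ran from -0.55 to 1.34. With so few counts these fits do not show that the tRNAs were alike in WT and KO.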

How the data were processed

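The authors sequenced total RNA after removal of rRNA (stranded, paired-end), aligned it with STAR to mm10 and estimated gene counts with RSEM, so the deposited values are expected counts that need not be whole. Tool versions and the strand setting are not given in the sources used here. The members and gene lists were chosen with earlier results of these data known. Counts were rounded for edgeR and DESeq2 only. Within each tissue genes with at least 1 CPM in at least 4 of 8 libraries were quantile-normalized and tested KO against WT with limma-voom (limma 3.58.1, R 4.3.3), with p-values adjusted over all genes tested by Benjamini-Hochberg and a threshold of 0.05. KO effects between tissues and WT levels used limma-voom with TMM in 1 fit each. Alternatives were other scalings and filters, edgeR 4.0.16, DESeq2 1.42.0, quality weights, a replicate block and each library left out. Added after seeing the data were counts of nuclear copies summed with their gene, and neighbouring libraries summed. Copies were found by matching nuclear gene sequences to the mitochondrial genes (blastn 2.17.0). All 13 protein and 2 rRNA genes passed the filter in each tissue, as did 0 of 22 tRNA genes. Nuclear genes named in the text are the called genes of the mitochondrial RNA lists with the smallest p, at most 5 a tissue, and mt-Tm was named after its counts were seen. Depth was 16353797 to 37889615 counts, and intervals or floors on counts cover counting error only. The fits were tested on simulated data. No table column was set aside.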

Additional observations from a re-analysis of the deposited data

Results flagged for a closer look

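In 108 tests of whether 1 of 4 libraries stands apart from its group (chance flags about 1 in 20), 9 values did so by Dixon's 95% critical value for the gap to the nearest library over the whole range. Liver WT replicate 4 was high in mt-Rnr1 (1268 CPM, the others 69.7 to 125 CPM), mt-Rnr2 (938 CPM, the others 27.3 to 69.6 CPM) and mt-Nd6 (105 CPM, the others 38.2 to 43.9 CPM). Liver KO replicate 8 was high in mt-Nd4l (51.7 CPM, the others 31.98 to 32.6 CPM) and mt-Cytb (984 CPM, the others 644 to 691 CPM). Liver WT replicate 3 was high in mt-Co3 (1111 CPM, the others 525 to 618 CPM), which matches Gm28437 over 783 bases. Testes WT replicate 1 was high in mt-Nd2 (209 CPM, the others 168 to 175 CPM) and mt-Nd6 (36.98 CPM, the others 23.2 to 23.8 CPM), and testes KO replicate 6 was low in mt-Nd6 (35.3 CPM, the others 41.96 to 43.2 CPM).

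The KO effect differed between tissues for 9 gene and tissue pairs by limma's test of the difference itself. Testes minus cerebellum, in log2 units, it was 1.23 ± 0.34 (adjusted p 0.0189) for mt-Atp8, 1.15 ± 0.35 (adjusted p 0.0288) for mt-Atp6, 0.81 ± 0.20 (adjusted p 0.00955) for mt-Nd2, 0.69 ± 0.18 (adjusted p 0.0108) for mt-Nd5, 0.62 ± 0.19 (adjusted p 0.0277) for mt-Nd4, 0.55 ± 0.15 (adjusted p 0.0171) for mt-Nd1 and 0.52 ± 0.15 (adjusted p 0.0246) for mt-Cytb. Cerebellum minus liver, it was -0.65 ± 0.20 (adjusted p 0.0467) for mt-Nd2 and -0.59 ± 0.18 (adjusted p 0.0403) for mt-Nd5.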

How the results depend on the processing

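In cerebellum 5 of 13 protein genes were called (1045 of 16225 genes in all). The count was 1 without a filter on low counts (628 of 30564), 3 with edgeR (1059 of 16225), 2 with DESeq2 (1324 of 16224), 9 with sample quality weights (1757 of 16225), 8 with nuclear copies added and TMM, 0 with neighbouring libraries summed and 0 in one fit of 24 libraries with TMM. In liver quality weights called 1 (mt-Nd5) against 0, and 1705 of 12816 genes in all against 757. In testes the count of 7 went to 0 with neighbouring libraries summed and to 1 in one fit of 24 libraries, where 3628 of 22678 genes were called. Summed libraries gave 48 of 16225 genes in cerebellum and 1 of 19329 in testes. Of the differences between tissues, cerebellum minus liver gave 2 calls (879 of 11112 genes in all). It gave 0 with TMM set without mitochondrial and abundant noncoding RNA (708 of 11112) and 0 without a filter (341 of 42233). It gave 1 with edgeR (1042 of 11112) and 1 with DESeq2 (1441 of 11108). Testes minus liver gave 0 (1821 of 11112), and 2 with quantile normalization (1700 of 11112). Testes minus cerebellum gave 7 (1617 of 11112), and 3 without a filter (1110 of 42233). Between WT cerebellum and liver, 7 (18980 of 21697) became 11 with quantile normalization (18130 of 21697). In cerebellum mt-Rnr2 lost its call with libraries summed, in one fit and without KO replicate 5, WT replicate 1 or WT replicate 4, and mt-Rnr1 gained one with quality weights and without KO replicate 6. In testes both rRNA genes gained a call with quality weights (6107 of 19329 genes in all), and mt-Rnr1 without KO replicate 8 (3244 of 19151). The causes were not tested.

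Leaving out one library moved the calls over 0 to 9 in cerebellum and 5 to 8 in testes, and over 0 to 4, 0 to 3 and 3 to 9 for cerebellum minus liver, testes minus liver and testes minus cerebellum. Calls over all genes moved too, over 417 to 2317, 1711 to 4913, 548 to 1280, 1225 to 2382 and 1091 to 1886 in the same order. The median log2 change stayed between -0.45 and -0.28 in cerebellum and between 0.44 and 0.55 in testes. Directions of single genes that changed had these ranges: in liver mt-Rnr1 -0.83 to 0.62, mt-Rnr2 -0.97 to 0.76, mt-Nd1 -0.10 to 0.053, mt-Co1 -0.16 to 0.093, mt-Co2 -0.29 to 0.088, mt-Atp6 -0.089 to 0.36, mt-Cytb -0.079 to 0.13 and mt-Nd4l -0.010 to 0.29, and in testes mt-Rnr2 -0.0053 to 0.24 and mt-Co3 -0.36 to 0.15.

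Scaling turned mt-Co1. In cerebellum its log2 change of 0.11 became -0.21 with TMM, -0.20 with library size alone, -0.21 with TMM set without mitochondrial and noncoding RNA, -0.21 with edgeR, -0.21 with DESeq2, -0.20 with its copy and TMM and -0.23 in one fit of 24 libraries. In testes -0.05 became 0.15, 0.22, 0.16, 0.15, 0.15, 0.14 and 0.15 in the same order. mt-Co3 in testes became 0.20 with quality weights, 0.23 with its copy and 0.12 with its copy and TMM. In liver, where quantile normalization gave no call, mt-Rnr1 and mt-Rnr2 became 0.18 and 0.25 with quality weights. mt-Nd1 became -0.019 with TMM, -0.029 with library size alone, -0.020 with TMM set without those RNAs, -0.019 with copies and TMM, -0.0069 with libraries summed and -0.057 in one fit. mt-Co2 became 0.0064 with its copy, and mt-Cytb -0.0090 in one fit.

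The labels do not say whether equal replicate numbers mark one animal across tissues. Over 24 pairs with one number the correlation of deviations ran from -0.18 to 0.23 and was over 0.1 in 6. A sample correlated best with its own number in 8, with 4 libraries to choose from each time. Samples of one animal need not correlate across tissues, so these values cannot decide whether the numbers pair them. With the replicate block the calls among the 13 genes were 2, 0 and 7 for the differences between tissues and 7, 12 and 12 between WT tissues, as without it. WT and KO libraries of a tissue share no number, so no block was possible there. None of the 22 tRNA genes passed the filter, and with a weaker filter or none up to 8 were tested between WT and KO of a tissue and 0 called. rRNA removal limits the levels of the rRNA genes, and the nuclear copies limit those of mt-Co2, mt-Co3, mt-Atp6, mt-Nd3 and mt-Nd4l. For mt-Co1 and mt-Nd4 the copy held at most 12.05% and 0.176% of the summed counts.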
